A study of Homo sapiens with 12 samples.

Results

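The genes described here encode the machinery that cleaves a nascent RNA, adds its poly(A) tail and releases RNA polymerase II from the template. They were chosen by symbol from a list of 32 cleavage, polyadenylation and termination factors, and 15 of the 32 were named in at least 1 of the authors' deposited tables of changed items, which name 4719 gene symbols in all. The series compared cortical neurons made from WA01, an established line of human embryonic stem cells, by induced NGN2 expression. The control neurons, labelled WT, received a scrambled short hairpin RNA and the others, labelled TDP-43 knockdown, received a hairpin against TDP-43, each for 7 days. Every group carried the NGN2 differentiation and came from the same line, and there were 3 RNA-seq and 3 3' end-seq libraries per hairpin, 12 in all. The labels do not say whether replicates were separate cultures, so the authors' adjusted p-values may measure only technical spread.

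A polyadenylation signal is read by 2 complexes that meet on the RNA. CPSF binds the AAUAAA hexamer and holds the endonuclease, and CstF binds GU-rich sequence downstream of the cut, while cleavage factors Im and IIm assist in the choice of site and in the link to the polymerase. Poly(A) polymerase then builds the tail, and XRN2 degrades the RNA still attached to the polymerase until transcription stops. Several of these factors are long known to have alternative 3' ends in their own transcripts. TDP-43 binds UG-rich RNA and disappears from neuronal nuclei in amyotrophic lateral sclerosis and frontotemporal dementia.

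The 5 tables used hold changed items only, with no value per library, so the spread between replicates, the depth and the number of items tested cannot be given for the results below. Gene values in numbered columns that no label ties to a sample were not used, and members' RNA levels, neuronal markers and the TARDBP level were not analysed here. The changes of usage index are the authors' scores on an unstated scale.

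Changes in where transcripts ended were the most common kind among the factors. The authors' deposited table of 3' end-seq listed 9 of the 32 genes, and all 9 were called longer, meaning that use moved from an upstream site to a downstream one in the knockdown. The 9 were CSTF3, SSU72, RBBP6, CPSF6, WDR33, PCF11, RPRD2, CSTF2T and TOX4, and 0 of the 32 were called shorter. Of all 2220 genes in the authors' deposited table, 84.7% were called longer, so the common direction is near that of the whole table. The 9 were 28.1% of the 32 members, beside 9.47% of 20056 RefSeq protein-coding genes in the authors' deposited table, a background that includes genes silent in neurons. The median change of the 9 was 0.219, beside 0.214 over the 1881 genes called longer in the authors' deposited table.

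The 9 genes were also counted by step of the pathway, beside the 28.1% of all 32 members. The groups hold 2 to 7 genes each, too few to compare the steps. CstF had 2 of its 4 genes in the authors' deposited table of 3' end-seq (CSTF3 and CSTF2T), and CPSF with its scaffold SYMPK had 1 of 7 (WDR33). Cleavage factor Im had 1 of 3 (CPSF6) and factor IIm 1 of 2 (PCF11) in the authors' deposited table. Both associated factors (RBBP6 and SSU72) were in the authors' deposited table, as were 1 of the 6 termination and CTD-binding factors (RPRD2) and 1 of the 3 genes of the PNUTS phosphatase complex (TOX4). None of the 5 poly(A) polymerases and poly(A)-binding proteins was in the authors' deposited table of 3' end-seq.

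CSTF3 had the largest change of the group. It encodes CstF-77, the scaffold of CstF, and is known for a short transcript that ends at an intronic site early in the gene. Its change in usage index was 0.498 in the authors' deposited table, rank 46 of 2220, with an adjusted p given as 0. On the minus strand of chromosome 11 (hg38, the build of all positions here), use fell at 33141431 and rose at 33084584. The falling site lay 20049 nt into the 76897 nt RefSeq gene, at 26.1% of its length, and the rising site lay exactly at the RefSeq end, 56847 nt farther on. The exons of these genes were not used here, so whether a falling site is intronic or exonic is not stated for any of them.

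CSTF2T encodes a paralog of the GU-binding subunit CSTF2 and is an intronless copy of it. Its change was 0.164 in the authors' deposited table (rank 1332 of 2220, adjusted p = 5.66e-45). The pair lay 1770 nt apart on the minus strand of chromosome 10, from 51697257 to 51695487. The gene lies within the bounds of PRKG1, and how reads shared by CSTF2 and CSTF2T were assigned is not given in the sources used here. CSTF1 and CSTF2 were in none of the tables.

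WDR33 encodes a CPSF subunit that contacts the AAUAAA hexamer. Its change was 0.219 in the authors' deposited table (rank 903, adjusted p = 1.05e-136). On the minus strand of chromosome 2, use moved from 127764474 to 127701022, a distance of 63452 nt and the longest of the 9. The falling site lay at 42.4% of the 110145 nt gene and the rising site 5 nt past its RefSeq end.

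RBBP6 and SSU72 act beside the core complexes. RBBP6 is a large RING-domain protein required for cleavage, and it also has a short isoform. Its change was 0.359 in the authors' deposited table (rank 219, adjusted p = 7.28e-276). Use fell at position 24540585 on the plus strand of chromosome 16, only 1019 nt from the RefSeq start and 3.06% into the gene, and rose at position 24572860, which is 3 nt before the RefSeq end. SSU72 is a phosphatase of the polymerase II tail domain. Its change was 0.434 in the authors' deposited table (rank 97, adjusted p given as 0). Use moved 20678 nt on the minus strand of chromosome 1, from position 1562351, at 37.7% of the gene, to position 1541673, the RefSeq end.

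The cleavage factor genes changed over shorter distances. CPSF6, the large subunit of cleavage factor Im that favours distal sites in many genes, had a change of 0.259 in the authors' deposited table (rank 644, adjusted p = 2.94e-185). Its sites lay 4687 nt apart on the plus strand of chromosome 12, from 69269670 to 69274357, the latter 1 nt before the RefSeq end. PCF11, the factor IIm subunit that bridges the RNA and the polymerase tail domain, had a change of 0.212 in the authors' deposited table (rank 965, adjusted p = 1.17e-169). Its sites were the closest of the 9, 586 nt apart on the plus strand of chromosome 11, from 83185205 to 83185791. They were also the only pair of the 9 whose rising site lay far from the RefSeq end, 1660 nt before it. The RefSeq bounds of ANKRD42-DT cover both PCF11 sites and those of PCF11-AS1 cover the rising one.

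RPRD2 and TOX4 act on the polymerase. RPRD2, a tail-domain binding protein, had a change of 0.167 in the authors' deposited table (rank 1304, adjusted p = 4.92e-103), with sites 2852 nt apart at 150473710 and 150476562 on the plus strand of chromosome 1. TOX4, a DNA-binding subunit of the PNUTS complex, had a change of 0.147 in the authors' deposited table (rank 1489, adjusted p = 7.62e-65). Its sites lay 2203 nt apart at 21496966 and 21499169 on the plus strand of chromosome 14, and the rising one lies within the RefSeq bounds of METTL3 as well.

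**Figure D1:**
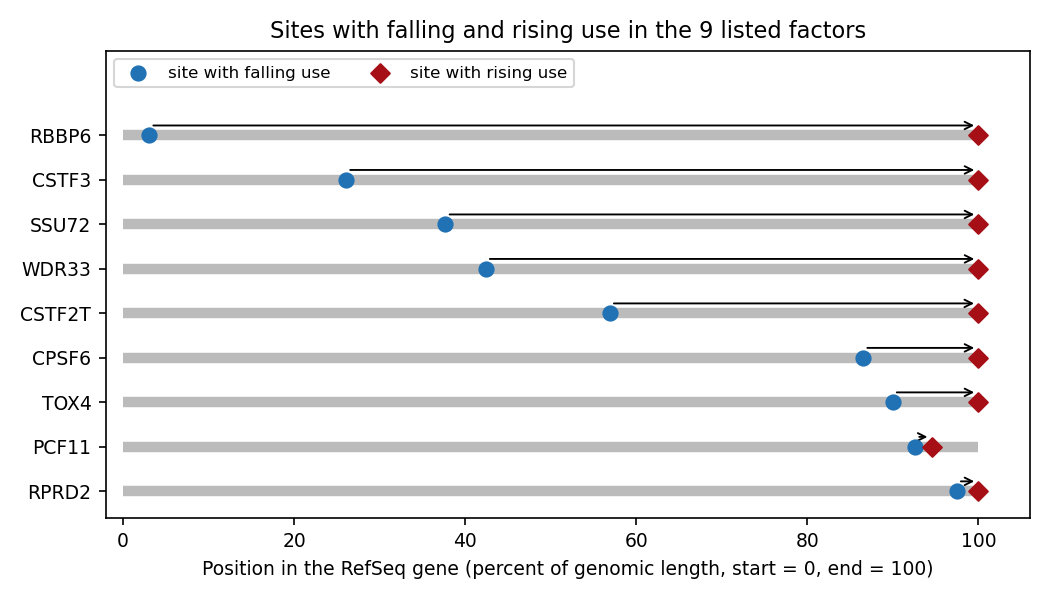
Position of the falling site (blue circle) and the rising site (red diamond) along each RefSeq gene drawn to the same width, as percent of genomic length from start (0) to end (100). In RBBP6, CSTF3, SSU72 and WDR33 the falling site lies in the first 50% of the gene, and in all but PCF11 the rising site lies at the gene's end.

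The genes were divided here, at 50% of the gene's length, by where the falling site lay. In RBBP6, CSTF3, SSU72 and WDR33 it lay in the first 50% of the gene, 4 of 9, beside 17% of the 1740 genes called longer whose falling site was inside the RefSeq gene. The same 4 genes had sites over 10000 nt apart, beside 20.3% of the 1881 genes called longer. This is not a separate trait. The shortest of the 4 genes is 33191 nt long and their rising sites lie at the gene's end, so an early falling site must be distant. In CSTF2T, CPSF6, TOX4, PCF11 and RPRD2 the falling site lay between 56.9% and 97.5% of the gene's length. The 4 genes with distant sites had changes between 0.219 and 0.498, and the 5 with closer sites between 0.147 and 0.259, in the authors' deposited table. Over all genes called longer, the median change was 0.227 for 381 pairs over 10000 nt apart and 0.211 for the other 1500 in the authors' deposited table.

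The rising sites had a common position. In 8 of the 9 genes the rising site lay within 5 nt of the RefSeq end, as it did in 58.6% of 1774 genes called longer that matched a RefSeq gene. None of the 9 genes had any of the 457 cryptic sites of the authors' deposited table, where 10% of the 2220 genes listed from 3' end-seq have a site. None of the 9 was in the authors' deposited tables of RNA-seq polyadenylation or of splicing, which hold 10.2% and 18.1% of the 2220 genes listed from 3' end-seq. With shares this low, 9 genes are too few for their absence from these tables to set them apart.

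**Figure D2:**
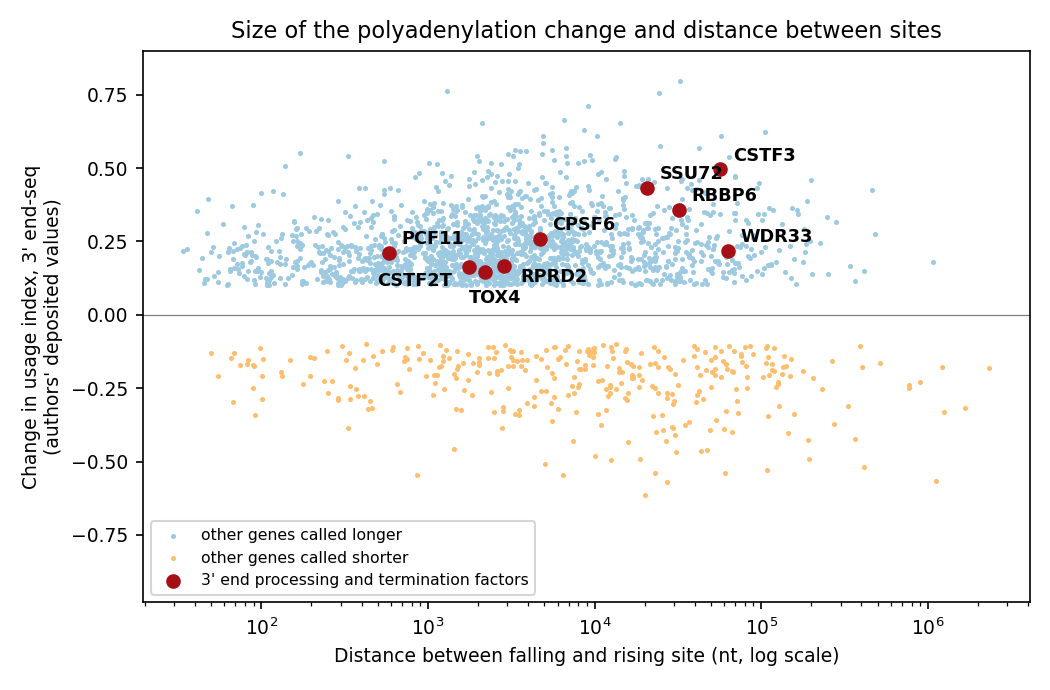
Change in usage index (authors' deposited values) against the genomic distance between falling and rising site (log scale) for the 2220 genes listed from 3' end-seq, with the 9 factors in red. CSTF3, SSU72, RBBP6 and WDR33 lie right of 10000 nt, and all 9 factors lie between 0.147 and 0.498.

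SCAF4 gained use of a site past its annotated end. SCAF4 and its paralog SCAF8 bind the polymerase tail domain and are known to keep transcripts from ending too early. In the authors' deposited table of cryptic sites, which are little used in control neurons, the SCAF4 site was used at 2.16% in scrambled and 26.3% in TDP-43 shRNA neurons. That is a gain of 24.2 percentage points, with 1 value per group and no p-value. The site lay at position 31670661 on the minus strand of chromosome 21, 339 nt past the RefSeq end, and the authors' deposited table classed it as a 3'UTR extension, like 35% of all 457 cryptic sites. SCAF4 was the only 1 of the 32 members with a cryptic site, or 3.12%, beside 1.94% of RefSeq protein-coding genes.

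Among the 160 extension sites the SCAF4 site was close to its gene and well used. It ranked 32 of 160 by knockdown usage in the authors' deposited table, where the median was 18.2% and the highest 78.1%. Of 151 extension sites placed downstream of their RefSeq gene, only 5 were closer to it, and the median distance was 2876 nt. SCAF4 was not in the authors' deposited table of site pairs, and SCAF8 was in none of the tables.

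**Figure D3:**
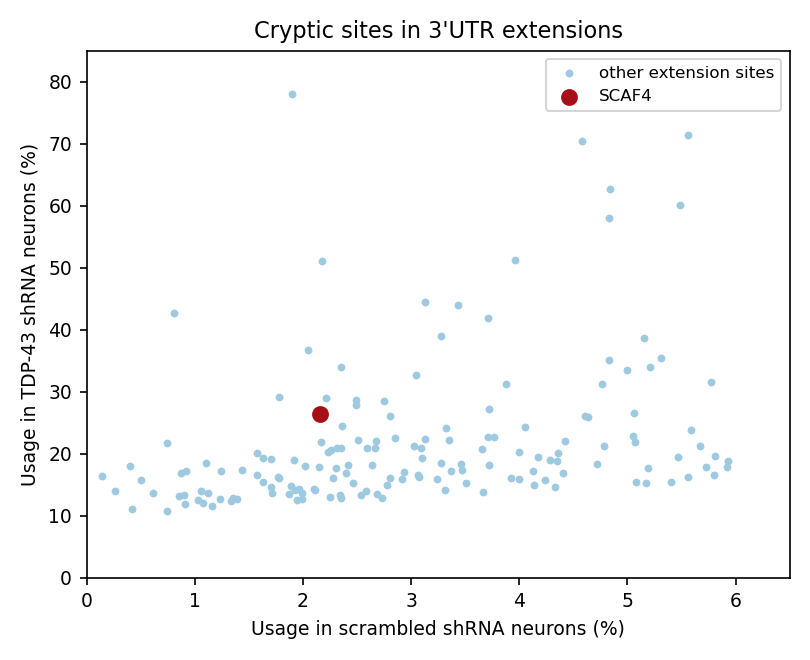
Usage of the 160 cryptic sites in 3'UTR extensions in scrambled (x axis, percent) and TDP-43 shRNA neurons (y axis, percent), 1 deposited value per group. The SCAF4 site (red) went from 2.16% to 26.3%.

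PABPC1 was the only member listed for polyadenylation in RNA-seq. PABPC1 is the main cytoplasmic poly(A)-binding protein, which coats the tail and links it to translation. Its change in usage index was 1.12 in the authors' deposited table of RNA-seq, called distal (rank 221 of 841, adjusted p = 1.86e-29). The distal call is shared by 95% of the 841 genes in the authors' deposited table, whose median change was 0.732. The subtracted group is not stated there, and this index is on another scale than that of 3' end-seq. As 1 of 32 members (3.12%), PABPC1 stood beside 4.07% of RefSeq protein-coding genes in the authors' deposited table. PABPC1 has close relatives and processed copies in the genome, and how shared reads were assigned is not given in the sources used here.

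Splicing changes in the factors were small. The authors' deposited table of splicing held 6 clusters (sets of introns that share splice sites) in 5 of the 32 members, XRN2, RPRD1A, CPSF1, FIP1L1 and PABPC1. All 6 clusters held an unannotated junction, as did 88.8% of the clusters in the authors' deposited table. The 5 genes are 15.6% of the members, beside 11.2% of RefSeq protein-coding genes in the authors' deposited table, a background that includes genes silent in neurons. The intron that changed most in each cluster moved by 0.6 to 6 percentage points of the cluster (median 4.3), beside a median of 6.4 points over all 2994 clusters in the authors' deposited table. No member's intron reached 10 points, while 33% of the clusters in the authors' deposited table had 1 that did. With 6 clusters this is too few to set the members apart, and their median lies between the quartiles of all clusters, 3.2 and 12.1 points. A positive value is taken here to mean a larger share in the knockdown. STMN2 has a polyadenylation site that gained use in the knockdown, and an unannotated STMN2 junction has 44.9 points in the authors' deposited table. That junction was picked as the most positive unannotated one of STMN2 and was not matched to the site by position. Its sign therefore cannot set the direction by itself, and the direction of the splicing changes below is assumed.

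XRN2, the exonuclease that drives termination, had the smallest cluster p of the members. An unannotated pair of annotated splice sites, from 21303473 to 21326490 on the plus strand of chromosome 20, gained 5.6 points in the authors' deposited table (adjusted p = 0.0035 for the cluster). This junction skips the exon from 21326279 to 21326406. In the authors' deposited table, the introns that flank that exon in the annotation changed by -3.5 and -2.1 points, and 3 junctions from unannotated 5' splice sites downstream of the same one changed by -0.1 to 0.2 points. The skipped exon is 128 nt long, which is not a multiple of 3. The 5' splice site that the skipping junction and the annotated intron share is shown to mark where both begin, and its sequence in the RefSeq table (GRCh38.p14) runs from 21303461 to 21303490 on the plus strand, 13 exon bases and then 17 intron bases, with the GT that opens the intron in capitals.
XRN2 shared 5' splice site: cgtggaagagaagGTgaggaggcgccaggc
The bases follow the usual pattern of a 5' splice site, with an exon ending in AAG and an intron opening with GTGAG. The same base opens both the skipping junction that gained share and the annotated intron that lost it, so the 2 differ only in their 3' splice sites.

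RPRD1A, a tail-domain binding protein related to RPRD2, showed a similar junction on the minus strand of chromosome 18. The junction from 35993300 to 36027184, which skips a 176 nt exon, gained 2.2 points in the authors' deposited table (adjusted p = 0.00788 for the cluster). The annotated intron upstream of the exon, from 36027075 to 36027184, changed by -6 points and the downstream one, from 35993300 to 36026900, by 3.8 points in the authors' deposited table. The 2 introns beside the exon thus moved in opposite directions, unlike those of XRN2.

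CPSF1, the large scaffold subunit of CPSF, had 2 clusters on the minus strand of chromosome 8. In the first, the annotated intron from 144394300 to 144394379 gained 3 points in the authors' deposited table, and the junction to an unannotated 5' splice site 9 nt into the upstream exon lost as much (cluster adjusted p = 0.0105). In the second, a junction that skips a 179 nt exon gained 2.8 points and the annotated intron downstream of that exon, from 144397879 to 144397954, changed by -5.7 points in the authors' deposited table (adjusted p = 0.0227 for the cluster). The annotated intron upstream of the exon gained 2.8 points in the authors' deposited table. In the first cluster the annotated site gained share, and in the second the exon-skipping junction and the annotated upstream intron gained equally. The 2 introns beside the skipped CPSF1 exon thus moved in opposite directions, as in RPRD1A.

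FIP1L1 and PABPC1 had the smallest shifts. FIP1L1 encodes the CPSF subunit that binds U-rich RNA and poly(A) polymerase. Its junction that skips a 214 nt exon, from 53444103 to 53458653 on the plus strand of chromosome 4, changed by -1.5 points in the authors' deposited table, and the annotated introns on either side by 1.2 and 2.7 points (cluster adjusted p = 0.0319). The skipping junction thus lost share in FIP1L1 and gained it in XRN2, RPRD1A and CPSF1. In PABPC1, an annotated intron changed by -0.5 points and a junction from a 5' splice site 144 nt away by 0.6 points in the authors' deposited table (adjusted p = 0.0485 for the cluster).

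**Figure D4:**
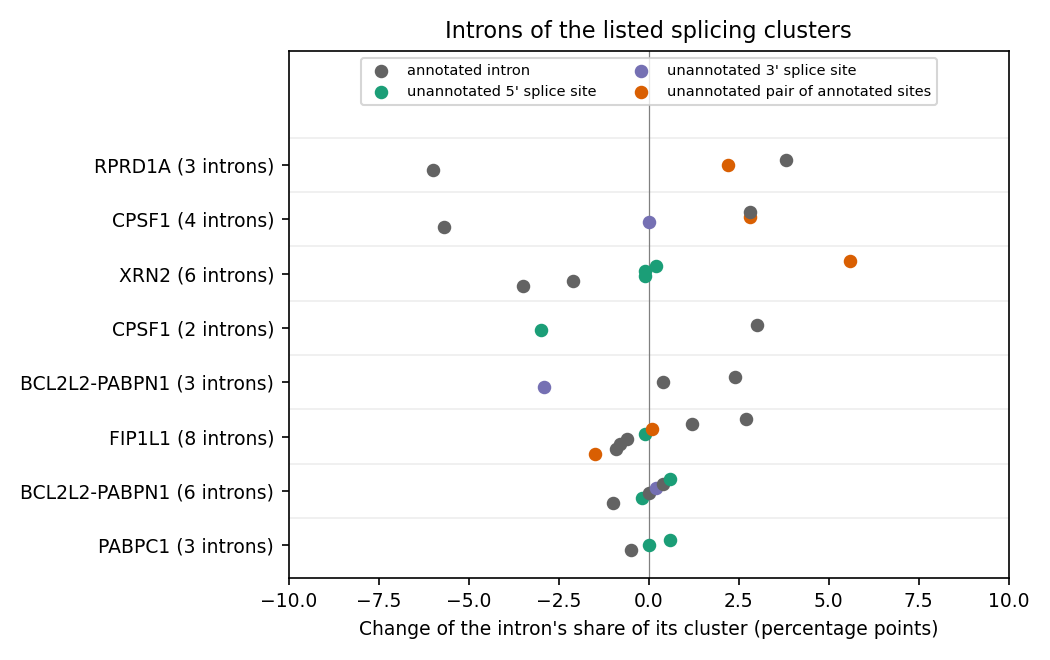
Change of each intron's share of its cluster (percentage points, authors' deposited values) in the 6 clusters of the members and in 2 clusters named for the BCL2L2-PABPN1 readthrough gene, coloured by annotation. All values lie between -6 and 5.6 points, and the orange junctions that skip an exon are above 0 in RPRD1A, CPSF1 and XRN2 and lie at -1.5 and 0.1 in FIP1L1.

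The remaining 17 members were in none of the tables. They were CPSF2, CPSF3, CPSF4 and SYMPK of CPSF and its scaffold, CSTF1 and CSTF2 of CstF, NUDT21 and CPSF7 of cleavage factor Im, and CLP1 of factor IIm. PAPOLA, PAPOLG, PABPN1 and PABPC4 of the tail-making and tail-binding group, SCAF8 and RPRD1B of the tail-domain binders, and PPP1R10 and WDR82 of the PNUTS complex made up the rest. The catalytic genes CPSF3, the endonuclease, and PAPOLA, the main poly(A) polymerase, were thus in no table. Absence from a table of changed items does not show that a gene did not change. PABPC1 was the only member in 2 tables, and 46.9% of the members were in at least 1, beside 21.6% of RefSeq protein-coding genes. That background includes genes silent in neurons, and the members were chosen with earlier results of these data known.

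Other genes of the pathway were counted from 9 lists of 113 genes. In the authors' deposited table of 3' end-seq, 12 were longer and 1 was shorter, 11.5% of the 113, and their median change was 0.208. That share is near the 9.47% of RefSeq protein-coding genes, and the split is near the 84.7% called longer among all listed genes, in the authors' deposited table. Among CTD phosphatases and binders 2 of 12 were longer, DIDO1 at 0.441 and CTDSPL2 at 0.288 in the authors' deposited table. The Integrator complex, which ends snRNA and paused transcripts, had 1 of 15 (INTS10 at 0.368), and the elongation list 1 of 18, the kinase gene CDK12 at 0.279, in the authors' deposited table. Among poly(A) tail genes 3 of 20 were longer, PAIP2 at 0.325, TENT2 at 0.179 and ZC3H14 at 0.108 in the authors' deposited table. Of the 18 deadenylation genes 3 were longer, the CCR4-NOT subunit genes CNOT10 at 0.181, CNOT8 at 0.151 and CNOT1 at 0.105 in the authors' deposited table. The histone mRNA list had 1 of 6 (ZNF473 at 0.232) in the authors' deposited table. Of the 17 symbols in the nuclear exosome list, DIS3 was longer at 0.208 and EXOSC7 shorter at -0.175 in the authors' deposited table. The lists of 4 PNUTS partners and 3 U1 snRNP genes had 0.

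In the other tables, 3 of the 113 genes were distal in RNA-seq, INTS12 at 1.36, PPP1CC, a catalytic subunit of the PNUTS phosphatase, at 1.12 and EXOSC4 at 0.884 in the authors' deposited table. These are 2.65% of the 113, beside 4.07% of RefSeq protein-coding genes, and 95% of all genes listed there are distal. Cryptic sites were listed for CNOT10, from 2.17% to 21.8% in a 3'UTR extension, and ZC3H14, from 2.72% to 13.3% in a 3'UTR, in the authors' deposited table. Together CNOT10 and ZC3H14 are 1.77% of the 113, beside 1.94% of RefSeq protein-coding genes. Splicing clusters were listed for 14 of the 113 (12.4%), near the 11.2% of RefSeq protein-coding genes. In SNRNP70, which encodes the U1-70K subunit, the most changed intron moved by 19.2 points in the authors' deposited table (adjusted p = 2.9e-07 for the cluster). That is more than any listed intron of the 32 factors. So were CNOT1 at 11.8, NELFCD at 11.7, CNOT6L at 9.1, PPP1CC at 8.6 and PAIP1 at 7.8 points in the authors' deposited table. Of all clusters there, 33% had an intron that changed by 10 points or more. The genes named here from splicing and from RNA-seq were chosen after their values were seen.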

How the data were processed

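Members and lists were chosen with earlier results of these data known. RNA-seq used a stranded total RNA kit and 3' end-seq a QuantSeq REV kit, which primes on poly(A), per the labels' protocols; priming at internal A-rich stretches was not tested. Per the submitters' processing notes fastp, Salmon, DESeq2, STAR, SAMtools and hg38 were used, without roles. The sources used here do not give the callers. Values were taken from 5 deposited tables of comparisons. The changes of usage index and of intron share are deposited scores, the latter printed as percentage points. Site usage is a deposited fraction per group, printed as percent. The p-values are the authors' adjusted p-values, at most 0.05. Introns per cluster are a count in the deposited file.

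The 6 numbered value columns of the gene table stayed unused, since the labels do not say which sample each number is; expression was therefore not analysed. Rising was read as rising in the knockdown because 199 of 457 cryptic sites were rising and 0 falling sites. Among cryptic sites, 2 had a second line with other values, and the first was kept. Symbols were matched as given, and gene bounds are those of RefSeq GRCh38.p14, matched for all 32 members. Older symbols matched 0 more. Junction coordinates name the last and first exon bases: GT followed in 145 of 148 annotated 5' splice sites within RefSeq promoter windows. Placement functions were tested on simulated data. No test was run beyond the authors'. Every listed member was named, and up to 4 genes per list. Because the 3' end-seq table starts at a change of 0.10, smaller changes are not seen. Python 3.11.15, numpy 2.4.6, pandas 2.3.3 and matplotlib 3.10.9 were used. In the exosome list the symbol MPP6 was left out of the splicing count, since that table's MPP6 lies in PALS2. MPP6 was entered where MPHOSPH6 was meant, and it still counts among the 17 exosome symbols and the 113 genes.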

Additional observations from a re-analysis of the deposited data

How the results depend on the processing

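Of 13 alternative counts of listed members, 11 stayed within 1.5 times the count as deposited. Several of the 11 could not have moved, so the tally does not measure robustness. Older symbols matched 0 more, all 9 genes of 3' end-seq were called longer, and their adjusted p-values were at most 5.66e-45. The 2 counts that moved further concern splicing, where 5 members had a listed cluster. At a cluster adjusted p of at most 0.01 there were 2 (XRN2 and RPRD1A), and 0 had an intron changing by 10 points or more. Over all 2994 clusters the median adjusted p was 0.0109, and 33% had such an intron. Fewer items pass a stricter limit by construction. The 9 genes listed from 3' end-seq remained 9 at an adjusted p of at most 0.01. They were 6 at a change of at least 0.2, at the very edge of 1.5 times. The median change of all 1881 genes called longer was 0.214. Counting BCL2L2-PABPN1 for PABPN1, an alternative chosen after seeing the data, gave 6 members with a splicing cluster. No paired analysis was possible because the tables hold no value per library, and leaving out replicates was not possible for the same reason. Depth is unknown.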

Other observations

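Some listed sites lay in or beside the factors under other gene names. In the authors' deposited table of 3' end-seq TCP11L1, on the opposite strand to CSTF3, was longer at 0.487 (adjusted p = 4.63e-88), and its rising site at 33084575 on chromosome 11 lay 9 nt from the rising site of CSTF3. That site is 11012 nt past the RefSeq end of TCP11L1; whether TCP11L1 transcripts reach it was not tested. In the authors' deposited table SFT2D3, whose 2 listed sites lie inside the WDR33 bounds on the opposite strand, was longer at 0.151 (adjusted p = 0.00162). In the same authors' deposited table the identifier ENSG00000282278, which has no symbol in the reference, was longer at 0.199 (adjusted p = 1.48e-05). Its falling site lay 2941 nt after the FIP1L1 start and its rising site 3559 nt past the FIP1L1 end on the same strand, and FIP1L1 itself was not in that table. These genes were chosen after their values were seen.

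PABPN1, the nuclear poly(A)-binding protein gene, shares its exons with the readthrough gene BCL2L2-PABPN1, for which the authors' deposited table of splicing held 2 clusters. In the cluster inside PABPN1, the junction to an unannotated 3' splice site 23 nt past the annotated one changed by -2.9 points in the authors' deposited table (adjusted p = 0.00457 for the cluster). The cluster that reaches from BCL2L2 into PABPN1 had no intron that changed by more than 1 point in size (cluster adjusted p = 0.0196). In that cluster the annotated junction from 23308199 to 23322181, which joins BCL2L2 to PABPN1, changed by 0.4 points and the one from 23321820 to 23322181, which starts inside PABPN1, by -1 point in the authors' deposited table. For the cluster inside PABPN1 the 2 genes cannot be told apart.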
